A study of Mus musculus with 15 samples.

Results

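*Mst1r* and 8 further growth factor receptor genes, *Met*, *Insr*, *Igf1r*, *Flt1*, *Pdgfra*, *Pdgfrb*, *Fgfr1* and *Ddr1*, were followed across mouse bone marrow-derived macrophages (BMDMs) at rest, under RANKL and under lipopolysaccharide (LPS). These 9 receptor tyrosine kinase genes were taken by name from a table of 20089 genes, and all 9 were found in it. *Mst1r* had been brought forward by its level after 72 h of RANKL in an earlier analysis of these data, and the values behind the choice of the other 8 were not recorded. The contrast of RANKL 72 h with control is therefore described without a test for all 9 receptors, and *Mst1r* is described without a test in every contrast. Tests of the other 8 in RANKL 72 h against LPS 72 h or RANKL 4 h use the same RANKL 72 h cultures. If those values lay behind the choice, the p-values may be too small, so they are given as description. All 9 passed the filter on low values (0.1 FPKM or more on average over the samples), *Mst1r* only through its RANKL 72 h level, so that counts of changed receptors are given over the other 8.

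The 15 samples formed 5 groups of 3. All were BMDMs of wild-type mice kept with M-CSF, the growth factor that supports macrophages. Control cells had M-CSF alone, RANKL 4 h and RANKL 72 h cells had M-CSF with RANKL, and LPS 4 h and LPS 72 h cells had M-CSF with LPS, the 72 h groups being given as 3 days in the labels. RANKL, the ligand of the receptor RANK, drives macrophage precursors to become osteoclasts, the cells that resorb bone, and LPS puts them in an inflammatory state. The labels give neither a culture time for Control nor the number or age of the mice, so a change at 72 h and time in culture cannot be told apart, and p-values measure the spread between cultures that may come from the same animals.

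Receptor tyrosine kinases sit in the cell membrane and act as pairs. When their ligand binds outside the cell, they phosphorylate themselves and adaptor proteins inside it, which starts the RAS-MAPK and PI3K-AKT cascades. In macrophages the leading member of the family is *Csf1r*, the receptor for M-CSF. *Mst1r* encodes RON, the receptor for macrophage-stimulating protein, and *Met* encodes its relative, the receptor for hepatocyte growth factor. *Insr* and *Igf1r* are the receptors for insulin and insulin-like growth factors, and *Flt1* (VEGFR1) binds VEGFA, VEGFB and placental growth factor. *Pdgfra* and *Pdgfrb*, the receptors for platelet-derived growth factors, are hallmarks of fibroblasts and other mesenchymal cells, *Fgfr1* binds fibroblast growth factors, and *Ddr1* binds collagen.

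Levels are FPKM, fragment counts scaled to exon length and library size, so they may be compared between genes. The fragments behind each value were recovered from the steps of the FPKM values, and 18306184 to 20330207 fragments fell on the listed genes of a sample. Osteoclast markers identified the RANKL 72 h cultures: the summed level of 10 of them was 1720 to 5470 FPKM there and 154 to 362 in the other 4 groups. The summed level of 9 macrophage markers was 6150 to 17600 FPKM over the 15 samples. Transcripts of other cells were also present, since 20 stromal markers summed to 588 to 2590 FPKM in RANKL 72 h, to 185 to 725 in LPS 72 h and to 224 to 501 in the other groups. In LPS 72 h, replicate 3 stood apart from its group, with a stromal sum of 725 FPKM against 185 and 213. The median chi-square between its fragment counts and those of the other two was 48.83 and 33.43 times that of counting noise, against 6.75 to 21.37 times for the other pairs of replicates. Macrophage markers, at 17600 FPKM in that culture against 6150 and 7940, and 15 markers of other blood cells, at 2200 against 444 and 758, were also highest there. In bulk RNA, more cells of a type and more RNA per cell cannot be told apart.

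The promoter windows of *Mst1r* and *Met* are shown because these related receptors were highest under different stimuli, *Mst1r* under RANKL and *Met* under LPS. The part of the windows in these levels was not tested. *Mst1r* lies on chromosome 9, from 107906873 to 107920383 on the plus strand (GENCODE M21, GRCm38), and *Met* on chromosome 6, from 17463800 to 17573980 on the plus strand. RefSeq on GRCm38.p6 gives *Mst1r* 2 start sites, each with a window of 250 bases before and 50 bases from the start. The upstream window is chr9:107906639-107906938, and its start lies in exon 1 of the 19 exons of the coding transcript. The downstream window is chr9:107914753-107915052, and its start lies in intron 10, 8130 bases from the first base of that transcript. A short form of the receptor that lacks most of the outer part is known to be transcribed from inside the mouse gene, and FPKM per gene do not separate it from the full receptor. In both *Mst1r* windows the capitals mark the bases from the start onward. In the *Met* window, chr6:17463707-17464006, they mark an AP-1 match and an E-box of the kind that MITF binds.
Mst1r upstream window: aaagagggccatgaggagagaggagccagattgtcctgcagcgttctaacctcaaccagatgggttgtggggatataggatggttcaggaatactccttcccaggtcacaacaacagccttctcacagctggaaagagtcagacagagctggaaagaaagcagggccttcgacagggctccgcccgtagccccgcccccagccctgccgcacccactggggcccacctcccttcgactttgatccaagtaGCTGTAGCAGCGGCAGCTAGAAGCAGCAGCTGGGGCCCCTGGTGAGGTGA
Mst1r downstream window: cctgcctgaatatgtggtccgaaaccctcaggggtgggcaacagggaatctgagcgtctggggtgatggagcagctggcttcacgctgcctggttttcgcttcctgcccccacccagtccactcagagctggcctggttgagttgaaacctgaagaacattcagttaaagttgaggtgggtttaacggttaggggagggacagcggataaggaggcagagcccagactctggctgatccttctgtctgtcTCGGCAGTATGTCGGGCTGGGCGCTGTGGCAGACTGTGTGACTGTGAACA
Met window: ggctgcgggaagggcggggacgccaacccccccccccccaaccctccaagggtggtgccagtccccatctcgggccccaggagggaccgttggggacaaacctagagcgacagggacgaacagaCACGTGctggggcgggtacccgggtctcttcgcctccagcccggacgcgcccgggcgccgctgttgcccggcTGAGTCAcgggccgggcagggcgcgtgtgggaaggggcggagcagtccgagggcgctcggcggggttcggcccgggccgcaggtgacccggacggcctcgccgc

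On both strands 5 motifs were sought, namely AP-1 (TGANTCA), PU.1 (GAGGAA), NFAT (GGAAAA), NF-κB and the MITF E-box (CACGTG), of which the PU.1, NFAT and NF-κB letters can overlap. None of them occurred in either *Mst1r* window. The *Met* window held TGAGTCA from 54 to 48 bases before its start and CACGTG from 126 to 121 bases before it. Among all 32851 RefSeq windows of 300 bases, 7.81% held the AP-1 letters, 7.15% the E-box, 28.3% the PU.1 letters, 23.4% the NFAT letters and 5.78% the NF-κB motif. Of the other receptors, windows were at hand for *Flt1*, *Pdgfra*, *Igf1r* and *Ddr1*. That of *Flt1* held 1 PU.1 match, those of *Pdgfra* and *Igf1r* held none of the motifs, and 1 of the 4 windows of *Ddr1* held an AP-1 and an NFAT match.

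*Mst1r* was close to absent in control cells and ranked 4 by mean FPKM among 57 listed receptor tyrosine kinases in RANKL 72 h. Its level in control cells was 0.0191, 0 and 0.0103 FPKM, which stand for 2, 0 and 1 fragments. In RANKL 4 h it was 0.0597, 0.00999 and 0.0101 FPKM (6, 1 and 1 fragments). In RANKL 72 h it was 14.7, 7.82 and 21.6 FPKM (1401, 781 and 2127 fragments).
All 3 RANKL 72 h cultures lay far above every other culture, and replicate 2 had the lowest level of the 3. LPS 4 h cultures held 0.11, 0.115 and 0.0677 FPKM (11, 12 and 7 fragments), and LPS 72 h cultures 0.0579, 0.0399 and 0.113 (6, 4 and 11 fragments). Both LPS groups lay above every control culture and reached 0.115 FPKM at most.
Ordered by mean, the groups ran RANKL 72 h (14.7 ± 6.91 FPKM, SD, n = 3), LPS 4 h (0.0976 ± 0.0259), LPS 72 h (0.0703 ± 0.0382), RANKL 4 h (0.0266 ± 0.0287) and Control (0.00979 ± 0.00957). Below RANKL 72 h, each neighbouring pair in this order overlapped.

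Summed over its 3 cultures and divided by depth, *Mst1r* in RANKL 72 h was 1500 times the control level, with an exact 95% interval of 512 to 7260 that covers counting error only. The ratio to LPS 72 h was 211 (138 to 341) and that to RANKL 4 h 549 (278 to 1270). As log2(FPKM + 0.1), the scale of the tests, the difference between RANKL 72 h and Control was 6.96, which understates the ratio because the control level is under the 0.1 added. Under LPS the ratio to control was 9.94 at 4 h (3.09 to 50.9) and 7.11 at 72 h (2.12 to 37.2), and at RANKL 4 h 2.73 (0.654 to 16). Of the 8 fragments in RANKL 4 h, 6 came from replicate 1. All these intervals pool the fragments of 3 cultures and leave out the spread between cultures, so they are no test.

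**Figure D1:**
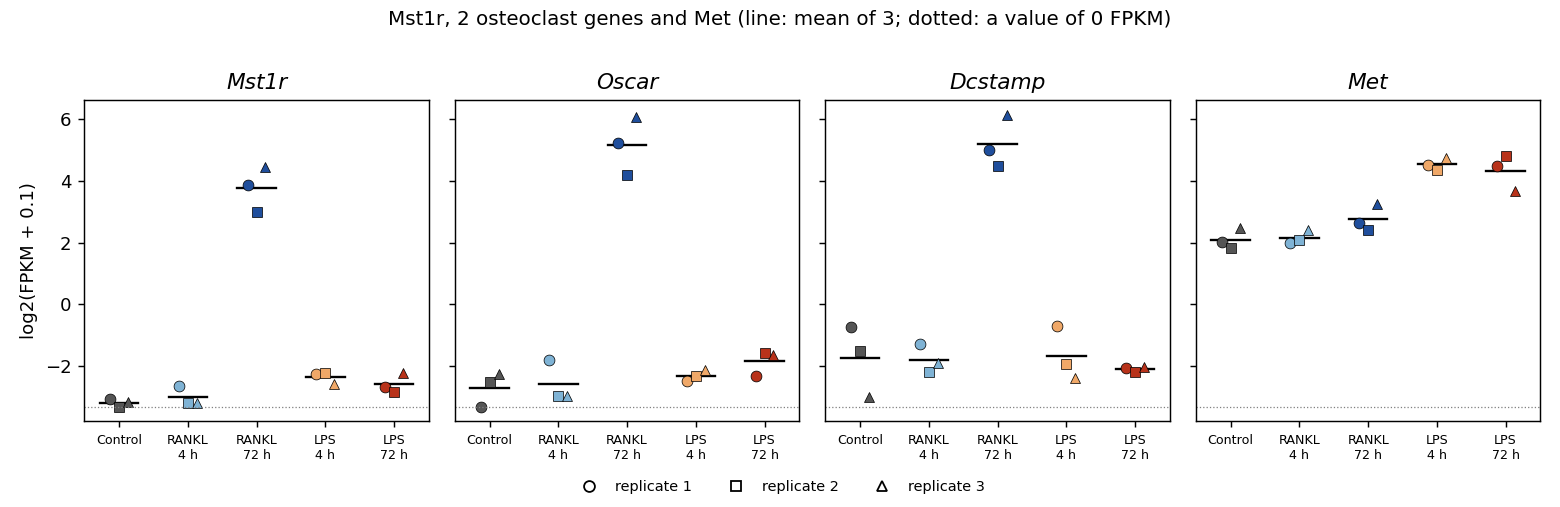
Level of *Mst1r*, the osteoclast genes *Oscar* and *Dcstamp*, and *Met* as log2(FPKM + 0.1) in each culture, with points for cultures, lines for group means and a dotted line for a value of 0 FPKM. The 3 RANKL 72 h cultures stand far above the others for *Mst1r*, *Oscar* and *Dcstamp*, whereas *Met* is highest in the 6 LPS cultures.

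Within RANKL 72 h the order of *Mst1r*, replicate 3 above 1 above 2, was also that of *Met* and of 9 of the 10 osteoclast markers. *Ctsk*, the collagen-degrading protease of osteoclasts, was at 987, 532 and 1660 FPKM in replicates 1 to 3, and *Nfatc1*, the transcription factor that directs osteoclast formation, at 45.3, 25.2 and 62.2. Stromal markers ran the other way, with 18 of 20 highest in replicate 1 and lowest in replicate 3. *Col1a1*, the main collagen of stromal cells, was at 692, 322 and 158 FPKM.
*Mst1r* was thus highest in the culture with the lowest stromal sum, 588 FPKM, and the part of either marker group in its level was not tested. Epithelial cells are another known source of *Mst1r*. Of 7 epithelial markers 5 were tested, 1 higher and 1 lower at RANKL 72 h, where 20.2% of all tested genes were higher and 9.04% lower. *Krt19*, a keratin, was at 8.12, 3.44 and 3.53 FPKM in RANKL 72 h against 0.296, 0.133 and 0.141 in control, *Krt18*, another keratin, fell (log2 change -1.22, SE 0.34, adjusted p = 0.0153), and the 7 summed to 4.07 to 8.98 FPKM in RANKL 72 h and 0.255 to 2.5 elsewhere.
The epithelial sum of RANKL 72 h was 8.98, 4.22 and 4.07 FPKM in replicates 1 to 3, and the part of epithelial cells in the level of *Mst1r* was not tested.

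Among the genes whose pattern over the 15 samples was most like that of *Mst1r* were *Oscar* (Pearson r = 0.99), *Edil3* (r = 0.986), *Serpind1* (r = 0.985) and *Dcstamp* (r = 0.976), out of 9486 genes that averaged 1 FPKM or more. These correlations of log2(FPKM + 0.1) rest on the separation of RANKL 72 h from the other groups, and the 15 points share their groups and libraries. *Oscar*, a costimulatory receptor of osteoclasts, averaged 0.0615 FPKM in control and 40.8 in RANKL 72 h, and *Dcstamp*, which is needed for cell fusion, averaged 0.258 and 41.8. Among the other receptors, the pattern closest to that of *Mst1r* was that of *Fgfr1* (r = 0.87), and that of *Met* was unrelated (r = -0.08).

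**Figure D2:**
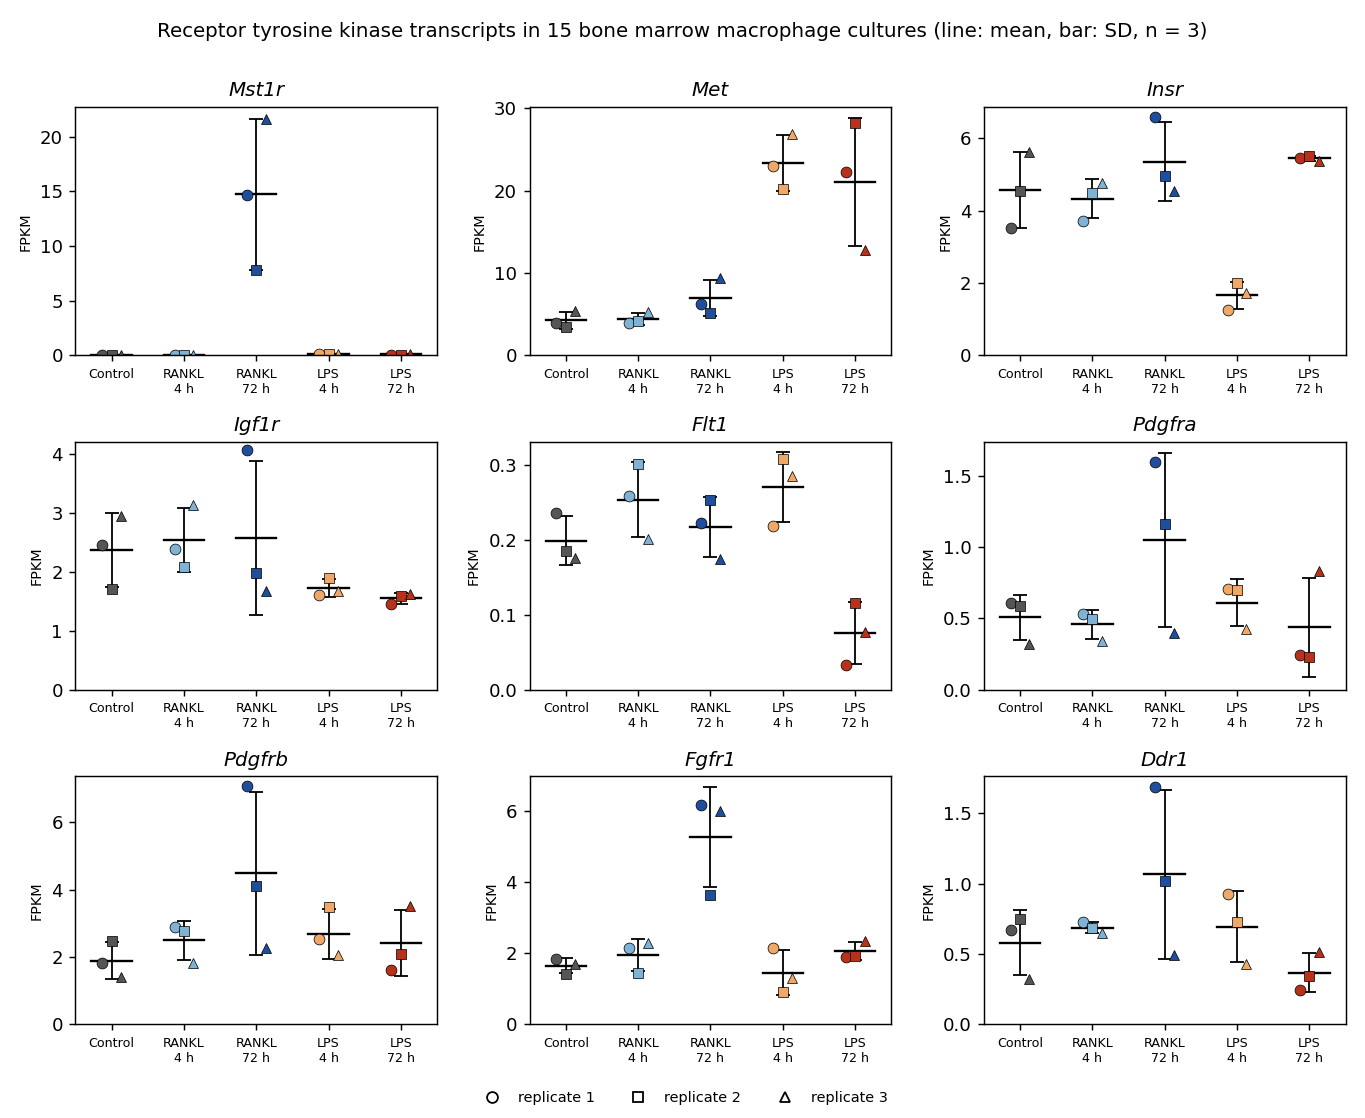
FPKM of the 9 receptors in each of the 15 cultures, 1 panel per gene with its own axis from 0, where symbols mark the replicate number, lines the mean and bars the SD of 3 cultures. *Mst1r* and *Fgfr1* are highest in RANKL 72 h, *Met* in both LPS groups, *Insr* is lowest in LPS 4 h and *Flt1* in LPS 72 h.

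Among the 57 listed kinases, which leave out *Tyro3*, *Csf1r*, *Axl* and *Mertk* had the highest mean FPKM in every group, *Csf1r* holding 39.1% to 67.7% of the summed level. *Axl* and *Mertk* are the receptors with which macrophages recognise dying cells. In control cells *Insr* ranked 6, *Met* 7, *Igf1r* 10, *Pdgfrb* 11, *Fgfr1* 13, *Ddr1* 20, *Pdgfra* 21, *Flt1* 26 and *Mst1r* 42.
In RANKL 72 h *Mst1r* ranked 4, with 3.06% of the summed level, and in the LPS groups *Met* took that rank, with 6.79% at 4 h and 6.07% at 72 h. *Mst1r* ranked 37 in RANKL 4 h, 30 in LPS 4 h and 31 in LPS 72 h. *Met* was thus above *Mst1r* in 4 of the 5 groups and below it in RANKL 72 h, where *Met* averaged 6.92 FPKM and *Mst1r* 14.7.

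*Met* rose under LPS at both times. Control cultures held 3.95, 3.43 and 5.41 FPKM, LPS 4 h cultures 23, 20.2 and 26.9, and LPS 72 h cultures 22.2, 28.2 and 12.8. Every LPS culture was above every culture of the other groups, and replicate 3 of LPS 72 h was the lowest of the 6. The log2 change was 2.44 at 4 h (SE 0.28, limma adjusted p = 8.51e-06) and 2.23 at 72 h (SE 0.28, adjusted p = 6.99e-05), and without replicate 3 of LPS 72 h it was 2.55 at 72 h.
*Met* did not pass the test at RANKL 4 h, where cultures held 3.89, 4.11 and 5.2 FPKM (log2 change 0.06, 95% interval -0.57 to 0.68). In RANKL 72 h it was at 6.2, 5.17 and 9.38 FPKM, a log2 difference of 0.67 from control, and the lowest of these was below the highest control value. The level was lower in RANKL than in LPS at 4 h (log2 difference -2.38, SE 0.28, adjusted p = 9.87e-06) and at 72 h (-1.56, SE 0.28, adjusted p = 0.000503). The pattern of *Met* was most like those of *Ptges* (r = 0.969), the inducible prostaglandin E synthase, *Csf3* (r = 0.953), the granulocyte growth factor, and *Pip5k1a* (r = 0.948).

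Under LPS at 4 h, 2 of the 8 receptors other than *Mst1r* changed, *Met* upward and *Insr* downward. A change was a fold above 1.5 or below 0.66 with an unadjusted p under 0.05. Of the 11743 genes tested, 49.8% changed by that rule, 8.75% upward and 41% downward. The median gene fell by 0.52 on the log2 scale in this contrast. When each sample was centred on its median gene, 2049 genes were higher and 1675 lower, in place of 1028 and 4818, and 4 of the 8 receptors changed, with *Flt1* (log2 change 0.88) and *Pdgfrb* (1.05) added upward. *Insr* stayed lower by that scaling (-0.84) and *Met* higher (3.01), while *Igf1r* and *Fgfr1* turned from -0.40 and -0.25 to 0.17 and 0.32, no call being made for either.

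*Insr* fell at LPS 4 h and was back in the control range at LPS 72 h. Control cultures held 3.53, 4.54 and 5.62 FPKM, LPS 4 h cultures 1.25, 2 and 1.72, and LPS 72 h cultures 5.45, 5.51 and 5.38. The LPS 4 h values were below all others. The log2 change was -1.41 at 4 h (SE 0.21, adjusted p = 7.1e-05) and 0.27 at 72 h (95% interval -0.19 to 0.74), and LPS 72 h was above LPS 4 h by 1.68 (SE 0.21, adjusted p = 1.02e-05), a contrast added after the values were seen. In that contrast the median gene rose by 0.52, and it was not run with samples centred on their median gene. RANKL cultures held 3.72, 4.48 and 4.77 FPKM at 4 h and 6.59, 4.95 and 4.53 at 72 h, overlapping with control at both times. At 4 h *Insr* was higher in RANKL than in LPS (log2 difference 1.35, SE 0.21, adjusted p = 9.46e-05). Its most alike genes were *Gmcl1* (r = 0.981), *Eogt* (r = 0.981) and *Abl1* (r = 0.979), the last a tyrosine kinase.

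*Igf1r*, the sister receptor of *Insr*, passed no test. Its levels were 2.46, 1.7 and 2.94 FPKM in control, 2.39, 2.08 and 3.13 in RANKL 4 h, 4.06, 1.97 and 1.67 in RANKL 72 h, 1.61, 1.9 and 1.68 in LPS 4 h, and 1.45, 1.58 and 1.63 in LPS 72 h. The 3 LPS 72 h cultures were below every control culture, but the log2 difference of -0.55 had an interval of -1.19 to 0.09 (adjusted p = 0.153). It was called with samples centred on their median gene (-0.63) and without replicate 2 of Control (-0.76). Between RANKL and LPS at 72 h it differed by 0.59 (interval -0.05 to 1.23), called only without replicate 2 (0.72) or replicate 3 (0.83) of RANKL 72 h or with FPKM rescaled to equal sums (0.67). Genes whose groups did not overlap made up 44.1% of those tested between LPS 72 h and Control. In RANKL 72 h replicate 1 held 4.06 FPKM and set the group mean, and without it the log2 difference from control was -0.33 in place of 0.04. The best likeness for *Igf1r* was r = 0.818, with *F420015M19Rik*, below the best of every other receptor.

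*Flt1* was low in every group and fell at LPS 72 h. Control cultures held 0.236, 0.185 and 0.176 FPKM, and LPS 72 h cultures 0.033, 0.116 and 0.0775, which stand for 5 to 17 fragments. No LPS 72 h culture reached the lowest control value. The log2 change was -0.79 (SE 0.24, adjusted p = 0.0221), and -0.81 without replicate 3 of LPS 72 h, but with a pseudocount of 1 it was -0.16 and not called. In LPS 4 h *Flt1* was at 0.219, 0.308 and 0.285 FPKM, and LPS 72 h was below LPS 4 h by a log2 difference of -1.10 (SE 0.24, adjusted p = 0.00121). RANKL 72 h cultures, at 0.223, 0.254 and 0.174 FPKM, were above LPS 72 h (log2 difference 0.87, SE 0.24, adjusted p = 0.0098), a call that a pseudocount of 1 also ended (0.18). *Flt1* is a gene of endothelial cells as well as of macrophages. Of the 7 endothelial markers tested, 5 were called lower in LPS 72 h than in control, 1 of them after adjustment (*Esam*, log2 change -1.90, SE 0.61, adjusted p = 0.0273), and 1, *Eng*, was called higher. Of all tested genes 16.1% were lower and 14.9% higher in that contrast. Without replicate 3 of LPS 72 h 2 of the endothelial markers were lower and 1 was higher. The summed level of the 8 markers was 33.8 to 40.6 FPKM in LPS 72 h and 25.6 to 38.5 in control, and the part of endothelial cells in the fall of *Flt1* was not tested.

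At LPS 72 h, 2 of the 8 receptors thus changed, *Met* upward and *Flt1* downward, where 31% of all tested genes changed, 14.9% upward and 16.1% downward. Between LPS 72 h and LPS 4 h, 2 receptors changed, *Insr* upward and *Flt1* downward, where 59.3% of genes did. At RANKL 4 h none of the 8 was called by limma and 0 had an unadjusted p under 0.05, where 2.56% of genes were called, and voom on the recovered fragments called 0 as well. The log2 changes there ran from -0.10 for *Pdgfra* to 0.39 for *Pdgfrb*. Between RANKL and LPS at 4 h, 2 receptors differed, *Met* and *Insr*, where 51.8% of genes did. When samples were centred on their median gene 3 receptors differed in that contrast, *Flt1* (-0.64) being added as lower in RANKL, and 1728 genes were higher and 2064 lower. Without replicate 1 of LPS 4 h *Fgfr1* was called higher in RANKL (0.77 in place of 0.46).

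**Figure D3:**
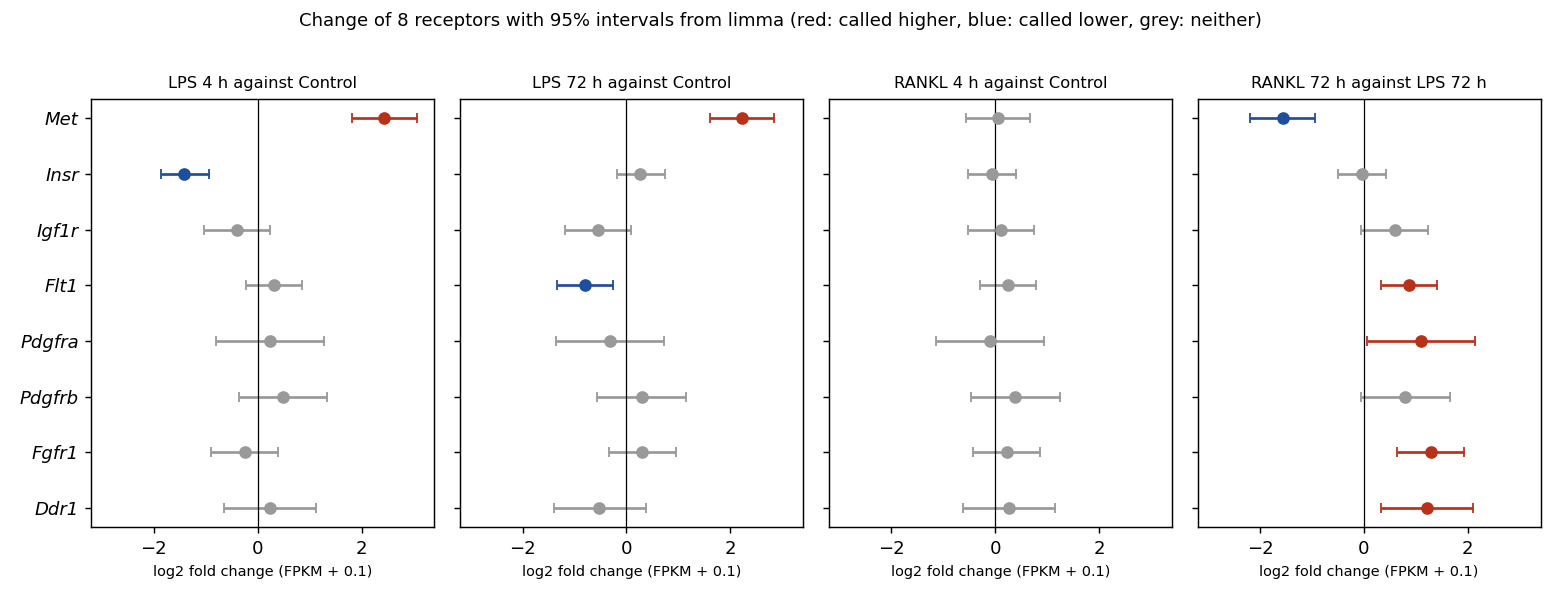
Log2 change of the 8 receptors other than *Mst1r* with the 95% interval from limma in 4 contrasts, on the log2(FPKM + 0.1) scale, red for called higher, blue for called lower and grey for neither. *Met* is far to the right under LPS at both times, and *Insr* is to the left at LPS 4 h, with a change of -1.41.

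*Fgfr1* was highest in RANKL 72 h. Its levels there were 6.15, 3.63 and 6 FPKM, against 1.84, 1.41 and 1.69 in control, 2.15, 1.44 and 2.28 in RANKL 4 h, 2.15, 0.907 and 1.29 in LPS 4 h, and 1.88, 1.93 and 2.34 in LPS 72 h. No culture of another group reached the lowest RANKL 72 h value. The log2 difference of RANKL 72 h from control was 1.59, given without a test. RANKL 72 h was above LPS 72 h by 1.29 (SE 0.29, adjusted p = 0.00259) and above RANKL 4 h by 1.37 (SE 0.29, adjusted p = 0.00344). Both contrasts use the RANKL 72 h values, whose part in the choice of *Fgfr1* was not recorded. Without replicate 1 of RANKL 72 h, the culture with the most stromal transcripts, the difference from LPS 72 h was 1.16. Replicate 2 was lowest of the 3 for *Fgfr1*, as it was for *Mst1r*, for *Met* and for all 10 osteoclast markers. The genes most like *Fgfr1* were *Plekhf1* (r = 0.944), *Prkcdbp* (r = 0.937) and *Epn2* (r = 0.936).

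*Pdgfra*, *Pdgfrb* and *Ddr1* spread widely between the replicates of the 72 h groups, where their highest culture was that of most stromal markers. *Pdgfrb* was at 7.08, 4.11 and 2.26 FPKM in RANKL 72 h and at 1.81, 2.47 and 1.4 in control. *Pdgfra* was at 1.6, 1.16 and 0.395 in RANKL 72 h and 0.612, 0.587 and 0.322 in control. *Ddr1* was at 1.69, 1.02 and 0.491 in RANKL 72 h and 0.673, 0.749 and 0.319 in control.
All 3 receptors were highest in replicate 1 and lowest in replicate 3 of RANKL 72 h, as were 18 of 20 stromal markers, and replicate 3 overlapped with control for each. In LPS 72 h the 3 receptors were highest in replicate 3, the culture that stood apart, with 3.51 FPKM for *Pdgfrb* against 1.62 and 2.09, 0.836 for *Pdgfra* against 0.244 and 0.233, and 0.514 for *Ddr1* against 0.245 and 0.343. In that group 16 of 20 stromal markers were also highest in replicate 3. Across the 15 samples *Pdgfra* correlated with *Pdgfrb* (r = 0.88) and *Ddr1* (r = 0.88), and *Pdgfrb* with *Ddr1* (r = 0.81).
The genes most like *Pdgfra* were *Adamts2* (r = 0.934), *Bmp1* (r = 0.927) and *Loxl1* (r = 0.923), which act in making and crosslinking collagen or elastin. Those most like *Pdgfrb* were *Fbn1* (r = 0.914), *Pxdn* (r = 0.894) and *Bgn* (r = 0.883), matrix proteins or their modifiers, *Bgn* being also on the list of stromal markers. For *Ddr1* they were *Srpx2* (r = 0.904), *Col6a2* (r = 0.899), another of the stromal markers, and *Loxl1* (r = 0.886).

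Against LPS 72 h, the RANKL 72 h level was higher for *Ddr1* (log2 difference 1.22, SE 0.40, adjusted p = 0.0223) and called higher for *Pdgfra* without the adjustment (1.10, SE 0.47, adjusted p = 0.068), while *Pdgfrb* did not pass (0.80, 95% interval -0.06 to 1.65). Without replicate 1 of RANKL 72 h the differences were 0.84 for *Ddr1* and 0.73 for *Pdgfra*, neither of them called, and with a pseudocount of 1 they were 0.56 and 0.49, again not called. The call for *Pdgfra* was also lost without replicate 2 of RANKL 72 h (0.95) and without replicate 1 (0.87) or 2 (0.85) of LPS 72 h. Without replicate 3 of LPS 72 h they were 1.44 and 1.59, and that of *Pdgfrb*, 1.09, was called, as it was at 1.20 without replicate 3 of RANKL 72 h. Stromal markers moved in the same contrast, 13 of 20 being higher in RANKL 72 h and 1 lower (14 and 1 without replicate 3 of LPS 72 h) with a median log2 difference of 1.80, against 0.11 over all tested genes. Their part in the levels of these receptors was not tested. In all, 5 of the 8 receptors other than *Mst1r* differed between RANKL 72 h and LPS 72 h, where 38.9% of genes did, and *Met* was the one that was lower. The count was 3 without replicate 1 and 7 without replicate 3 of RANKL 72 h, and 6 without replicate 3 of LPS 72 h.

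Against control, *Met*, *Pdgfrb* and *Fgfr1* among the other 8 receptors lay past the thresholds at RANKL 72 h, all upward. Of all tested genes 29.2% did, 20.2% upward and 9.04% downward. *Mst1r* itself was chosen on this contrast, and the values behind the choice of the other 8 were not recorded. These calls are therefore no test, and nothing is read from them. With samples centred on their median gene, 1488 genes were higher and 1668 lower in place of 2369 and 1062. Of the tested stromal markers, 16 of 20 were called higher in the same contrast, 10 of them after adjustment. Between RANKL 72 h and RANKL 4 h, 2 of the other 8 receptors passed, *Met* and *Fgfr1*, where 28.3% of genes did. *Met* did so without the adjustment only (log2 difference 0.61, adjusted p = 0.116), and with same-numbered samples as a block, whose deviations correlated at 0.16 to 0.25, it was not called (limma adjusted p = 0.117).

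**Figure D4:**
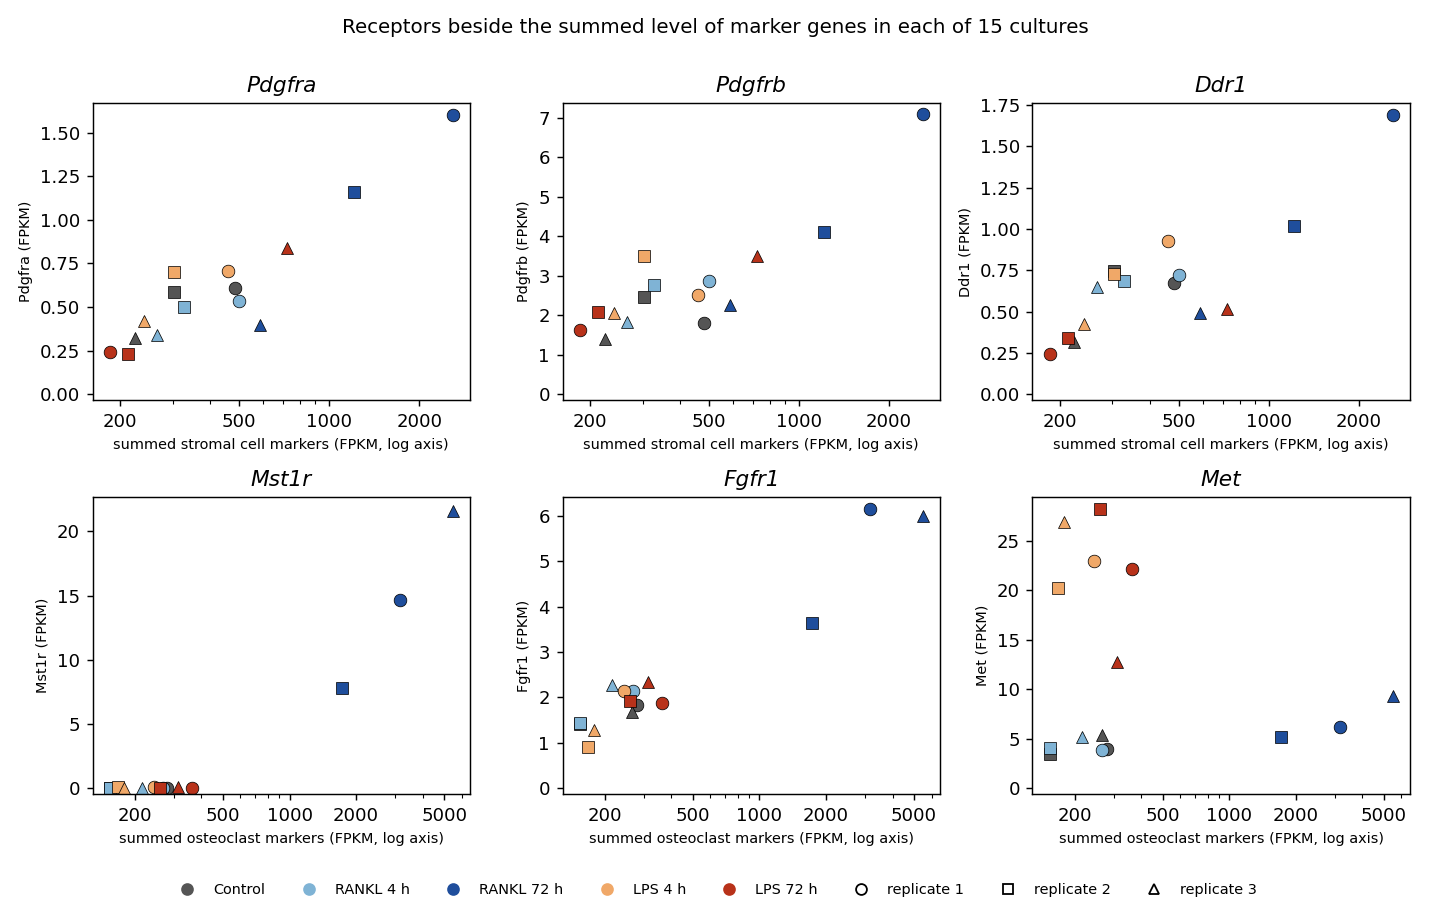
FPKM of *Pdgfra*, *Pdgfrb* and *Ddr1* against the summed level of 20 stromal markers (upper row), and of *Mst1r*, *Fgfr1* and *Met* against that of 10 osteoclast markers (lower row), 1 point per culture and a log axis for the sums. The stromal sum is largest, at 2590 FPKM, in replicate 1 of RANKL 72 h, where *Pdgfra*, *Pdgfrb* and *Ddr1* are also highest, and *Mst1r* is highest where the osteoclast sum reaches 5470 FPKM.

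The ligands of these receptors were measured in the same cultures. Of 25 listed ligands 23 were in the table and 9 passed the filter. *Mst1*, which encodes the ligand of *Mst1r*, was at 0.394 FPKM or below in all 15 samples and did not pass it. *Hgf*, the ligand of *Met*, was at 1.93, 3.12 and 4.35 FPKM in control and 1.25, 1.62 and 1.93 in LPS 4 h, where it was called lower without the adjustment (log2 change -0.88, SE 0.40, adjusted p = 0.0703).
*Igf1*, a ligand of *Igf1r*, averaged the highest FPKM of the listed ligands and was at 36.3, 63.7 and 75.8 FPKM in control and 18.4, 16.4 and 19.4 in LPS 72 h, all below control. In RANKL 72 h it was at 28.2, 37.2 and 26.9 FPKM, and it was called lower in both 72 h groups.

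*Pdgfa* and *Pdgfb*, ligands of the PDGF receptors, were called higher at both RANKL times, *Pdgfb* at 4 h without the adjustment only (log2 change 1.44, SE 0.27, adjusted p = 0.069). Both were called higher at LPS 4 h as well, *Pdgfa* at 7.23, 6.67 and 4.53 FPKM and *Pdgfb* at 3.65, 3.48 and 3.35. *Pdgfb* was at 1.27, 0.709 and 0.677 FPKM in control, 2.37, 2.84 and 2.26 in RANKL 4 h and 11.4, 10.7 and 16.5 in RANKL 72 h. These 3 groups did not overlap, and the RANKL 72 h change was 3.74 on the log2 scale (SE 0.27, adjusted p = 8.67e-07). *Pdgfa* was at 3.48, 3.63 and 4.49 FPKM in control and 11.5, 11.8 and 13.4 in RANKL 4 h, a log2 change of 1.64 (SE 0.25, adjusted p = 0.0302).
In LPS 72 h *Pdgfa* was at 1.44, 2.27 and 2.98 FPKM, all below control. *Pdgfc* was at 16.7, 13.6 and 11.3 FPKM in control and 3.31, 3.06 and 3.89 in LPS 72 h, a log2 change of -1.98 (SE 0.32, adjusted p = 0.000455). It was called lower at LPS 4 h and RANKL 72 h as well. *Pgf*, placental growth factor and a ligand of *Flt1*, was at 1.37, 0.474 and 0.321 FPKM in control and 6.17, 4.45 and 4.96 in RANKL 72 h (log2 change 2.89, SE 0.50, adjusted p = 0.000967), and it rose at LPS 72 h as well (1.69, SE 0.50, adjusted p = 0.0188), where replicate 3 overlapped with control.
By count, 2 of the 9 tested ligands were higher at RANKL 4 h, 4 were higher and 2 lower at RANKL 72 h, 2 higher and 3 lower at LPS 4 h (2 and 1 with samples centred on their median gene), and 2 higher and 4 lower at LPS 72 h. At RANKL 4 h 2.56% of all tested genes were called in either direction. Of all tested genes 20.2% were higher and 9.04% lower at RANKL 72 h, 8.75% and 41% at LPS 4 h, and 14.9% and 16.1% at LPS 72 h, shares that hold beside the counts of the lists that follow as well. The median log2 change of the ligands was 0.78 at RANKL 72 h against 0.16 over all tested genes, and -0.16 at LPS 72 h against 0.08.

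**Figure D5:**
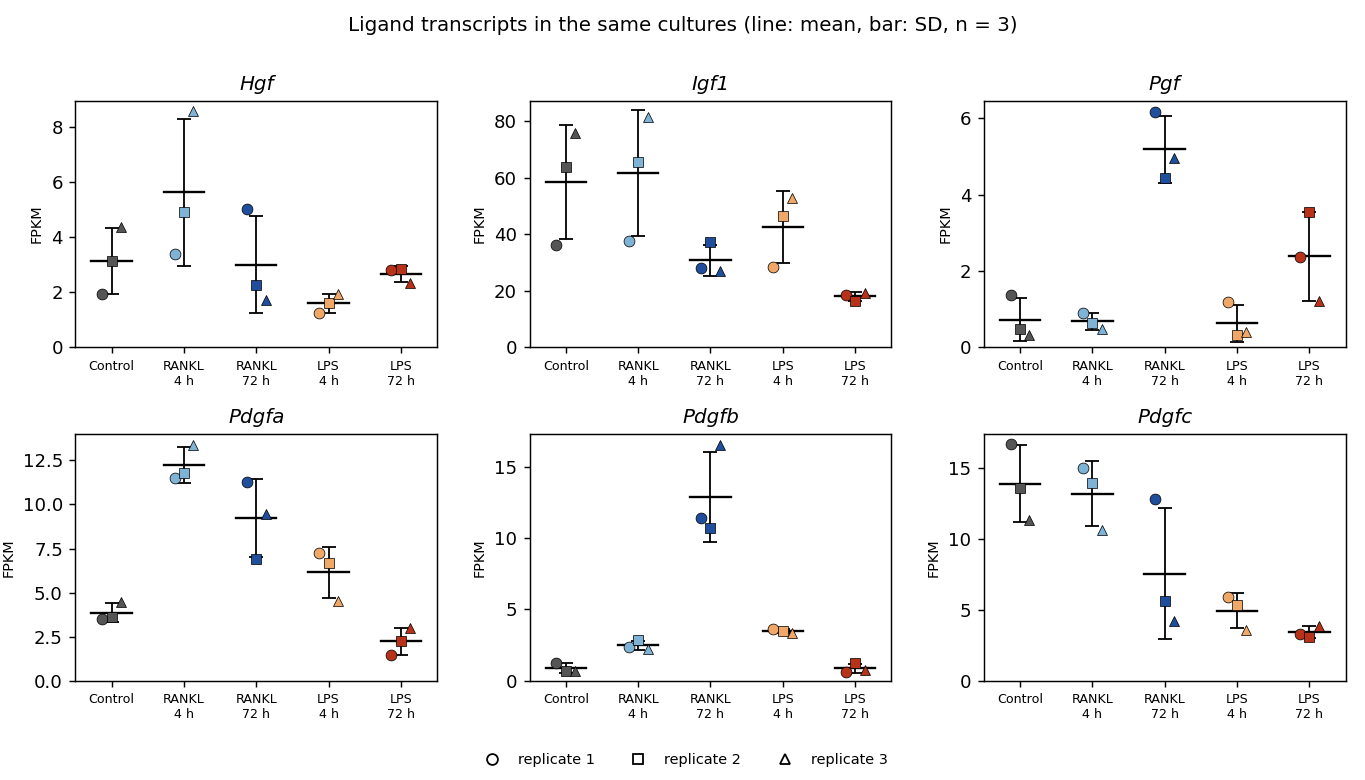
FPKM of 6 ligand genes in each of the 15 cultures, with symbols for the replicate number, lines for the mean and bars for the SD of 3 cultures. *Pdgfb* is highest in the 3 RANKL 72 h cultures, at 10.7 to 16.5 FPKM. *Pdgfa* has its highest means in the RANKL groups, while the means of *Pdgfc* and *Igf1* are lowest in LPS 72 h.

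The pro-forms of the *Mst1r* and *Met* ligands are cut by serine proteases at the cell surface, which SPINT1 and SPINT2 inhibit. Of 10 listed proteases and inhibitors 6 were tested. At LPS 4 h 1 was higher and 3 were lower (2 and 3 when centred), and at LPS 72 h 4 were lower, with medians of -0.81 and -1.02 on the log2 scale against -0.52 and 0.08 over all genes. *Plau*, urokinase, averaged the highest FPKM of them, at 143, 225 and 229 in control, and fell to 52.2, 51.9 and 32.9 in LPS 4 h (log2 change -2.12, SE 0.29, adjusted p = 3.63e-05). It was called lower in both 72 h groups too. *Spint1* was at 12.2, 8.06 and 17.8 FPKM in control and 4.14, 4.18 and 2.28 in RANKL 72 h, with no overlap (log2 change -1.79, SE 0.38, adjusted p = 0.00348). *Spint1* was called lower in both LPS groups as well, and at RANKL 4 h without the adjustment only.
*Spint2* fell at LPS 72 h from 4.26, 2.35 and 2.09 FPKM to 0.381, 0.59 and 0.812 (-2.09, SE 0.39, adjusted p = 0.00114).

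Among 10 genes that bind insulin-like growth factors or insulin or take them up, 7 were tested, and 3 were higher at RANKL 72 h, 3 lower at LPS 4 h (1 when centred), and 3 higher and 1 lower at LPS 72 h, where leaving out replicate 3 left 1 higher and 1 lower. *Igf2r*, which removes IGF2 from the surface, rose from 18.6, 26.2 and 30.3 FPKM in control to 54, 62.3 and 80.2 in RANKL 72 h (log2 change 1.39, SE 0.28, adjusted p = 0.00276). It was called higher at LPS 72 h as well, and lower at LPS 4 h without the adjustment only. *Igfbp4*, an IGF-binding protein, was at 39, 78.1 and 44.7 FPKM in control and 8.38, 19.4 and 45.9 in LPS 72 h (log2 change -1.39, SE 0.49, adjusted p = 0.0416), replicate 3 overlapping with control. Without the adjustment only, *Igfbp4* was called lower at LPS 4 h and higher at RANKL 72 h. *Ide*, the insulin-degrading enzyme, fell at LPS 4 h from 13, 18 and 16.2 to 5.56, 8.34 and 6.61 FPKM (-1.20, SE 0.17, adjusted p = 4.8e-05), as *Insr* did.

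Of 8 co-receptors 6 were tested. At LPS 4 h 3 were higher and 2 lower (3 and 1 when centred), and at RANKL 72 h 4 were higher and 1 lower, where 20.2% of all genes were higher and 9.04% lower. The median log2 change was 0.70 at LPS 4 h and 1.04 at RANKL 72 h, against -0.52 and 0.16 over all genes. *Sdc4*, a heparan sulfate proteoglycan that helps fibroblast growth factors bind, was at 22.4, 21.6 and 19.3 FPKM in control, 611, 685 and 417 in LPS 4 h and 63.9, 61.9 and 71.9 in LPS 72 h. The log2 changes were 4.72 (SE 0.16, adjusted p = 3.13e-10) and 1.64 (SE 0.16, adjusted p = 1.06e-05). *Cd44*, a co-receptor of *Met*, rose at LPS 4 h from 70, 63 and 81.3 FPKM to 160, 188 and 184 (1.31, SE 0.13, adjusted p = 1.89e-06). *Nrp1*, a VEGF co-receptor, fell in the same cultures from 46.9, 75.2 and 66.2 FPKM to 13.7, 21.2 and 19.3 (-1.79, SE 0.27, adjusted p = 8.82e-05). *Nrp2*, its relative, rose at RANKL 72 h from 30.7, 38.9 and 35.7 to 91.9, 105 and 125 FPKM (1.61, SE 0.23, adjusted p = 0.000209). *Nrp2* was called higher in both LPS groups as well, at 51.4 to 96.8 FPKM at 4 h and 57.7 to 69.2 at 72 h. *Nrp1* was called lower at RANKL 72 h and LPS 72 h too, and *Sdc4* higher at RANKL 72 h.

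Of 32 adaptors and kinases that act below the receptors, all tested, 4 were higher at RANKL 72 h and the median log2 change was 0.15, against 0.16 over all genes. *Src*, a kinase that osteoclasts need to resorb bone, was at 6.06, 3.44 and 3.54 FPKM in control, 28.9, 18.4 and 43.6 in RANKL 72 h and 61.1, 59.6 and 55.3 in LPS 4 h. Its log2 changes were 2.74 (SE 0.32, adjusted p = 6.04e-05) and 3.77 (SE 0.32, adjusted p = 6.42e-07). *Src* was called higher at LPS 72 h too. *Irs1*, an adaptor of the insulin and IGF receptors, was higher at RANKL 72 h at 0.714, 0.474 and 0.0919 FPKM against 0.061, 0.0512 and 0.0273 (log2 change 1.62, SE 0.40, adjusted p = 0.0081), its replicates standing in the order of the stromal sums of 2590, 1210 and 588 FPKM. *Gab1*, the docking protein of MET, was at 2.58, 2.26 and 1.61 FPKM in control and 5.35, 4.14 and 6.1 in LPS 72 h (1.24, SE 0.24, adjusted p = 0.00128). *Grb2*, *Akt1* and *Mapk3*, which carry the signal on, were abundant in every culture, *Grb2* at 63.4 to 106 FPKM, *Akt1* at 48.7 to 101 and *Mapk3* at 65.8 to 129. At LPS 4 h 4 of the 32 were higher and 7 lower, a split that turned to 10 and 2 with samples centred on their median gene. At LPS 72 h 4 were higher and 2 lower, or 7 and 3 without replicate 3 of that group.

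Of 21 negative regulators, all tested, 7 were higher and 7 lower at LPS 4 h (8 and 4 when centred), 3 higher and 1 lower at LPS 72 h, and 5 higher and 1 lower at RANKL 72 h. *Socs3* and *Socs1*, inhibitors of cytokine signalling, had the largest log2 changes of the list at LPS 4 h, and *Socs1* was lower at RANKL 72 h (-2.30, SE 0.59, adjusted p = 0.0104). *Socs3* was at 5.6, 2.72 and 2.38 FPKM in control, 503, 457 and 442 in LPS 4 h and 69.6, 79.6 and 62.5 in LPS 72 h, and the log2 changes were 7.09 (SE 0.31, adjusted p = 2e-09) and 4.36 (SE 0.31, adjusted p = 1.17e-06). *Dusp6*, a phosphatase that acts on ERK, fell at LPS 4 h from 42.4, 54.8 and 46.3 FPKM to 8.21, 4.25 and 10 (-2.74, SE 0.25, adjusted p = 9.92e-07).
*Spry1*, an inhibitor of growth factor signalling to RAS, was at 0.598, 0.395 and 0.561 FPKM in control, 4.18, 2.58 and 7.05 in RANKL 72 h and 0.0942, 0.253 and 0.261 in LPS 72 h. All RANKL 72 h cultures were above control and all LPS 72 h cultures below it, with log2 changes of 2.83 (SE 0.37, adjusted p = 0.000134) and -1.07 (SE 0.37, adjusted p = 0.0366). Within RANKL 72 h its replicates stood in the order of those of *Mst1r*. *Grb10*, an inhibitor of the insulin and IGF receptors, was at 1.56, 1.67 and 0.993 FPKM in control and 9.44, 4.82 and 2.86 in RANKL 72 h (1.81, SE 0.37, adjusted p = 0.00268), highest in replicate 1 and lowest in replicate 3 like most stromal markers.

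The other receptor tyrosine kinases gave the wider family. Of 49 listed 48 were in the table and 23 were tested, and at RANKL 72 h 10 were higher and 4 lower with a median log2 change of 0.61 against 0.16 over all genes, 20.2% of which were higher and 9.04% lower. *Ephb3* and *Ephb6*, called higher, passed the filter on low values only through their RANKL 72 h level. They held 0.179 to 0.406 and 0.246 to 0.381 FPKM there, and at most 0.106 and 0.104 elsewhere. Their calls there are no test, and the count and median that include them are given as description. In RANKL 72 h 13 of the 23 were highest in replicate 1 and lowest in replicate 3, the order of 18 of 20 stromal markers, among them *Ddr2*, a collagen receptor, at 3.63, 1.67 and 0.792 FPKM. The part of stromal cells in the counts of these lists was not tested. *Egfr*, the receptor for epidermal growth factor, was at 0.383, 0.262 and 0.171 FPKM in control and 1.99, 0.992 and 1.45 in RANKL 72 h (log2 change 2.07, SE 0.31, adjusted p = 0.000302). It was called higher in both LPS groups too, at 0.719, 0.413 and 0.403 FPKM at 4 h and 0.781, 0.792 and 0.949 at 72 h. *Kdr*, the second VEGF receptor, was at 6.8, 4.16 and 4.88 FPKM in control and 1.66, 1.69 and 1.33 in RANKL 72 h (-1.67, SE 0.31, adjusted p = 0.0015). *Kdr* was called lower at LPS 72 h as well, at 0.875, 1.27 and 1.6 FPKM. *Csf1r* was at 190, 217 and 188 FPKM in control and 339, 297 and 339 in RANKL 72 h (0.71, SE 0.14, adjusted p = 0.00208).
At LPS 4 h 3 were higher and 3 lower (5 and 2 when centred), and at LPS 72 h 3 were higher and 6 lower. *Epha4*, among those higher at LPS 4 h, passed the filter only through its level there, so that call is no test. It held 0.551 to 0.791 FPKM there and at most 0.184 elsewhere. *Aatk*, a kinase of the same family, fell at LPS 4 h from 5.18, 5.68 and 9.34 FPKM to 0.712, 0.584 and 0.73 (-3.10, SE 0.44, adjusted p = 4.82e-05). It was called lower at LPS 72 h too. *Axl* was at 119, 98.7 and 75.4 FPKM in control and 21.7, 27.9 and 36 in LPS 72 h (-1.78, SE 0.23, adjusted p = 7.7e-05). *Axl* was called lower at RANKL 72 h as well, at 75.1, 58.3 and 41.5 FPKM. *Kit* and *Flt3*, receptors of blood cell progenitors, were lower at LPS 72 h as well (-2.19, SE 0.44, adjusted p = 0.00176, and -2.16, SE 0.69, adjusted p = 0.0256). *Kit* was called lower at RANKL 72 h too. Markers of other blood cells moved with *Kit* and *Flt3*, 11 of the 14 tested being lower than in control at LPS 72 h and 11 at RANKL 72 h, with medians of -3.80 and -4.26, and their part in the fall of these receptors was not tested.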

How the data were processed

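RNA-seq of 15 mouse BMDM cultures was analysed, with groups and replicate numbers from the sample labels. The authors deposited FPKM per gene and sample, made with StringTie and Ballgown according to their methods, and the submitters' processing notes name GRCm38.p4 and mm10. The aligner is not given in the sources used here. The table was complete for 20089 genes, and entries after these, as well as the single-cell data of the study, were not analysed here, nor were *Tyro3*, *Vegfa* and *Vegfb*.

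The members and the gene lists were chosen with earlier results of these data known. For 100% of the 14485 genes above 0 in 3 or more samples, the deposited FPKM stood in whole-number proportions (tolerance 0.01), which gave the fragments. No value columns were left unused (0).

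Tests used limma 3.58.1 (R 4.3.3), with lmFit and eBayes with a trend, on log2(FPKM + 0.1) for 11743 genes averaging 0.1 FPKM or more, in a fit of all 5 groups without a block. FPKM are not counts, so the edgeR test named in the study's methods was not used, but its thresholds were (fold above 1.5 or below 0.66, unadjusted p under 0.05). P-values called adjusted are limma's, Benjamini-Hochberg adjusted over all tested genes. Contrasts between 72 h and 4 h of the same stimulus were added after the values were seen. An exact permutation test of 3 against 3 cultures cannot go below p = 0.1. The fit was tested on simulated data. Alternatives covered the pseudocount (1 and 0.01), the filter (none or 1 FPKM), scaling, groups in the fit, the block, the trend, adjustment, voom on fragments, and leaving out each replicate. Named were the 9 receptors, the direct ligands, the most changed and most abundant list members, and the most alike genes, and single marker genes were picked after their values were seen. A single one of the most alike genes is not reported here.

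Same-numbered samples deviated together from their group means in RANKL 4 h and Control (r of 0.71 to 0.84), LPS 4 h and Control (0.44 to 0.62) and RANKL 4 h and LPS 4 h (0.55 to 0.69). The r was lower for RANKL 72 h and Control (0.14 to 0.32), where replicate 3 was closest to replicate 2 of Control. For LPS 72 h it was -0.03 to 0.18 with Control and -0.23 to -0.02 with RANKL 72 h. The pairing comes from the replicate numbers in the labels. Promoter windows are from RefSeq (GRCm38.p6), where 6 of the 9 receptors matched, and gene positions from GENCODE M21. Python 3.11.15, numpy 2.4.6, pandas 2.3.3, scipy 1.17.1 and matplotlib 3.10.9 were used.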

Additional observations from a re-analysis of the deposited data

Results flagged for a closer look

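*Insr* differed between the LPS groups, LPS 72 h being above LPS 4 h by 1.68 on the log2 scale (SE 0.21, limma adjusted p = 1.02e-05), where the median gene rose by 0.52. *Flt1* differed between them as well, by -1.10 (SE 0.24, adjusted p = 0.00121). *Fgfr1* differed between RANKL 72 h and RANKL 4 h by 1.37 (SE 0.29, adjusted p = 0.00344). Each was a test of the 72 h group against the 4 h group, added after the values were seen. In these contrasts the stimulus and time in culture cannot be told apart. That of *Fgfr1* uses the RANKL 72 h cultures, whose part in the choice of the gene was not recorded. Single values were not screened for outliers, since the criterion needs groups of 4 or more.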

How the results depend on the processing

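Counts here are over all 9 receptors, *Mst1r* included. The calls of *Mst1r*, and those of all 9 for RANKL 72 h against Control, are no test. The number called stayed within 1.5 times its value in 96 of 102 alternatives. The exceptions were 5 at LPS 4 h and 4 for RANKL against LPS at 4 h when samples were centred on their median gene, 1 at LPS 72 h and 3 for RANKL against LPS at 72 h with a pseudocount of 1, and the same 1 and 3 with the filter at a mean of 1 FPKM. Leaving out each replicate gave 0 receptors at RANKL 4 h, 3 to 5 at RANKL 72 h, 2 to 3 at LPS 4 h, 2 to 3 at LPS 72 h, 2 to 3 for RANKL against LPS at 4 h and 4 to 8 at 72 h. Under a replicate block the counts were 0, 4, 3, 2, 2 and 6 in the same order of contrasts, and no receptor's call changed in these 6 contrasts.

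In the contrast of RANKL 72 h with RANKL 4 h, added later, the block ended the call for *Met*. Reversals of direction were seen only for changes that were not called. With samples centred, *Igf1r* and *Fgfr1* were at 0.17 and 0.32 for LPS 4 h against Control, and *Igf1r*, *Fgfr1* and *Ddr1* at -0.06, -0.11 and -0.53 for RANKL against LPS at 4 h. With FPKM rescaled to equal sums *Insr* was at 0.04 for RANKL against LPS at 72 h. The other reversals came from leaving out a replicate. At RANKL 4 h against Control the log2 change then ranged from -0.08 to 0.24 for *Met*, -0.23 to 0.10 for *Insr*, -0.10 to 0.27 for *Igf1r*, -0.34 to 0.06 for *Pdgfra* and -0.04 to 0.47 for *Ddr1*. At LPS 4 h against Control it ranged from 0 to 0.45 for *Pdgfra*, -0.56 to 0.03 for *Fgfr1* and -0.08 to 0.50 for *Ddr1*, and at LPS 72 h from 0 to 0.53 for *Pdgfrb*. Between RANKL and LPS it ranged at 4 h from -0.17 to 0.04 for *Flt1*, -0.27 to 0.10 for *Pdgfrb* and -0.23 to 0.25 for *Ddr1*, and at 72 h from -0.20 to 0.07 for *Insr*. Low counts limit precision, since *Flt1* had 5 to 47 fragments per culture and *Mst1r* outside RANKL 72 h at most 12. The causes of these differences were not tested.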
